A study of Mus musculus with 11 samples.

Results

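The genes described are 10 transcripts by which GABAergic interneurons of the cerebral cortex are recognised: the GABA synthesis and packaging genes *Gad1*, *Gad2* and *Slc32a1*, the calcium buffer gene *Pvalb*, the neuropeptide genes *Sst*, *Vip*, *Npy*, *Cck* and *Tac1*, and *Reln*. They were picked by name and found by symbol among the 53700 genes counted in each library. All 10 were detected in all 11 libraries, and all 10 were among the 17626 genes tested. With *Abi3* deleted, the levels of 5 of these genes were fitted higher and those of 5 lower, and 0 of the 10 differences passed the test, which 0.539% of all tested genes did. The estimates ran from 0.81-fold for *Tac1* to 1.32-fold for *Vip*. *Tac1* and *Slc32a1* were more spread between animals in Abi3_KO than in Abi3_WT, a difference in spread that was not tested.

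Cortical interneurons release GABA, the main inhibitory transmitter of the adult brain, which is made from glutamate by glutamate decarboxylases and loaded into synaptic vesicles by a vesicular transporter. Most of these cells fall into subclasses that are named after parvalbumin, somatostatin or vasoactive intestinal peptide, and several subclasses store neuropeptides in dense-core vesicles in addition to GABA. Loss of inhibitory tone and of somatostatin and neuropeptide Y has long been studied in Alzheimer's disease and its mouse models. In pieces of tissue such as these, fewer cells of a type and less RNA per cell cannot be told apart.

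All 11 animals were 8-month-old females of the 5xFAD line. These mice bear mutated human genes of familial Alzheimer's disease as transgenes, expressed in neurons from the Thy1 promoter, and deposit amyloid. The comparison was between 6 mice with both copies of *Abi3* (Abi3_WT) and 5 homozygous for a KOMP null allele that removes the locus (Abi3_KO), so it asks whether loss of *Abi3*, a gene expressed by microglia, went with a change in cortical transcripts of mice that all deposit amyloid. The 5xFAD line came on a B6SJL background and the null allele on C57BL/6N. The labels give C57BL/6 as the strain, and both groups carried the SJL allele of *Trem2* in heterozygous form. Mice without the 5xFAD transgenes were not analysed here, so no value below says what amyloid itself does to these genes. RNA came from the cortex of the right hemisphere of mice perfused with saline, and was read near its poly(A) end by QuantSeq, a 3′ sequencing method.

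The libraries held 3202310 to 5501958 reads in genes. *Abi3* itself had 10 to 38 reads per Abi3_WT library and 0 to 2 reads per Abi3_KO library, as the labels say. Excitatory cortical neuron markers were present throughout, with *Slc17a7*, the vesicular glutamate transporter of the cortex, at 533.1 to 693.5 normalized counts in Abi3_WT and 534.8 to 785.8 in Abi3_KO. RNA of other tissues was present in the samples too. The choroid plexus gene *Ttr* stood at 1847 to 3447 normalized counts in 3 libraries (Abi3_WT animal 4 and Abi3_KO animals 1 and 5) against 34.8 to 152 in the other 8, and 7 striatal marker genes summed to 2018 to 3222 in Abi3_WT and 1725 to 2805 in Abi3_KO. For every 100 reads in genes there were 59.3 to 68.8 reads outside genes in Abi3_WT and 49.8 to 62.5 in Abi3_KO. The part of these differences in the results below was not tested, except by the fits named beside them. Reads outside genes went largely with genotype, with means of 65.9 in Abi3_WT and 54.0 in Abi3_KO. A fit with them as a covariate therefore cannot tell their part from that of genotype. Its standard errors were also larger, at 0.27 against 0.16 for *Tac1*.

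The genes lie apart in the genome, and all 10 are protein-coding. On GRCm39, *Gad1* is at chr2:70383416-70432372, *Gad2* at chr2:22511862-22583886 and *Slc32a1* at chr2:158452605-158464883, all on the plus strand. *Pvalb* is at chr15:78075314-78091149 on the minus strand. Of the peptide genes, *Sst* (chr16:23707321-23711733) and *Cck* (chr9:121315695-121324863) are on the minus strand, and *Vip* (chr10:5589186-5599956), *Npy* (chr6:49799026-49806489) and *Tac1* (chr6:7554120-7565834) on the plus strand. *Reln*, with 64 exons, spans chr5:22089452-22549700 on the minus strand.

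The difference between genotypes was tested with DESeq2 over all genes. A gene was called when its p, adjusted by the Benjamini-Hochberg method, was at or below 0.05. The adjustment was over the 6487 genes that passed DESeq2's own filter on mean count. The 10 genes and all 95 called genes were among these 6487. Across the cortex 0.539% of the tested genes were called, 0.340% higher and 0.199% lower in Abi3_KO. Of the 10 interneuron genes DESeq2 called 0, with adjusted p between 0.424 and 0.978, and 0 had an unadjusted p below 0.05, where 8.58% of all genes did. edgeR and limma also called 0 of the 10. All 10 of the 95% intervals held 0 and lay within 1 unit of it on the log2 scale, so a doubling or halving of any of these transcripts lay outside them. The median log2 fold change of the 10 was -0.03, beside 0.02 for the 7780 genes with a mean count of at least 50, and the median absolute change was 0.144 beside 0.125. The sizes of the 10 differences were close to those of genes read at a like depth.

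**Figure D1:**
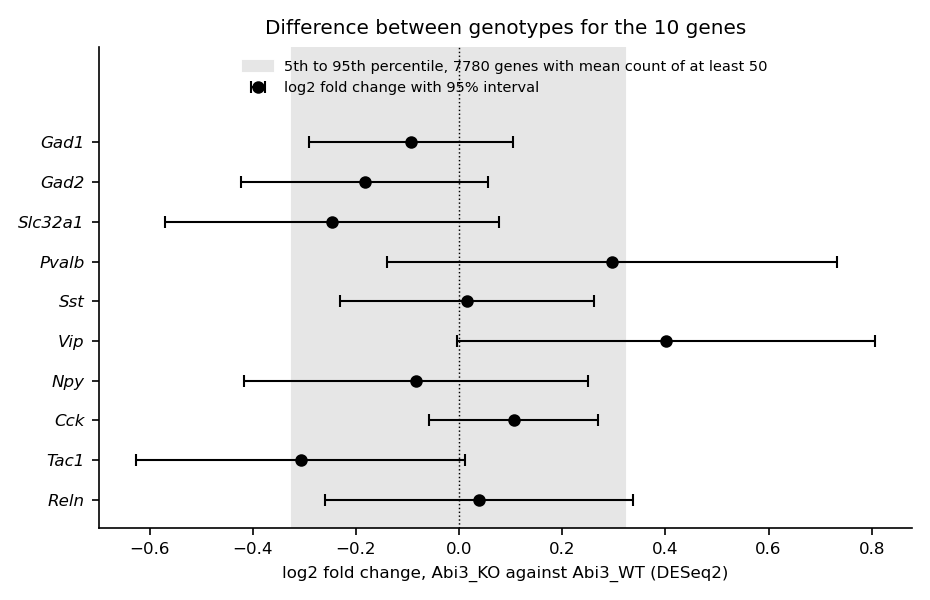
Log2 fold change of the 10 genes in Abi3_KO against Abi3_WT, from DESeq2 (points) with its 95% interval (bars); the grey band spans the 5th to 95th percentile of the 7780 genes whose mean normalized count was 50 or more. All 10 intervals cross 0, and *Vip* is the only point outside the band.

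Several neuropeptide genes are known targets of CREB, a factor that responds to cyclic AMP and binds the palindrome TGACGTCA or the shorter TGACG, which reads CGTCA on the other strand and is contained in the palindrome. These letters were looked for on both strands of the RefSeq promoter windows, in the 100 bases before the gene start. The palindrome was present in 1.15% of 32851 promoters and the shorter motif in 10.5%. Of the 10 genes only *Sst* held the palindrome, and *Sst*, *Vip*, *Cck*, *Tac1* and *Gad2* held the shorter motif. The stretches of 30 bases around the motif in the 4 peptide genes are shown 5′ to 3′ on the strand of the gene, in RefSeq sequence placed on GRCm39, with the motif in capitals, because peptide genes are among the best known genes with this motif.

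Sst (chr16:23709624-23709653, minus strand): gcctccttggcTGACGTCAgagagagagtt

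Vip (chr10:5589126-5589155, plus strand): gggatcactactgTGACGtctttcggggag

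Cck (chr9:121324791-121324820, minus strand): tcctgctggactgCGTCAgcactgggtaaa

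Tac1 (chr6:7555005-7555034, plus strand): ggctctacaggctCGTCAcgcctgagataa

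The motif began 48 bases before the RefSeq start of *Sst*, 79 before that of *Vip*, 47 before that of *Cck* and 43 before that of *Tac1*. In the GENCODE annotation the *Vip* stretch lay upstream of the gene, and the other 3 overlapped annotated exons of transcripts that start farther upstream. The log2 fold changes of the 4 genes were 0.02, 0.40, 0.11 and -0.31, in the order shown, and none was called. A match of letters is a description of the sequence and not a sign of binding in these samples.

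Values below are normalized read counts, that is, reads divided by the size factor of the library. They allow a gene to be compared between animals, and levels of different genes are not ranked here.

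*Gad1* codes for GAD67, the decarboxylase that makes most of the GABA in the cell body. In Abi3_WT it ran from 470.1 to 590.3 with a median of 554.2, and in the 5 Abi3_KO animals it was 555.8, 504.0, 574.2, 485.6 and 398.3. The groups overlapped, with 4 of 5 Abi3_KO animals inside the Abi3_WT range and 1 below it. The means were 537.3 ± 50.0 (SD, n = 6) and 503.6 ± 69.1 (SD, n = 5), and the log2 fold change was -0.09 with an interval of -0.29 to 0.10 (DESeq2, adjusted p = 0.766).

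*Gad2* codes for GAD65, the form bound to synaptic terminals. Its levels in Abi3_WT ran from 358.7 to 520.8 with a median of 476.0, and the Abi3_KO animals had 438.4, 414.1, 458.4, 456.3 and 286.8. Animal 5 lay well below the other 4, and all 5 lay below the Abi3_WT mean. Between means of 466.0 ± 60.0 (SD, n = 6) and 410.8 ± 71.6 (SD, n = 5) the log2 fold change was -0.18, interval -0.42 to 0.06 (DESeq2, adjusted p = 0.572).

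*Slc32a1* codes for VGAT, which fills synaptic vesicles with GABA. Abi3_WT animals ranged from 183.0 to 241.2 with a median of 204.6, while the Abi3_KO animals had 167.8, 181.8, 266.2, 157.0 and 117.2. No Abi3_KO animal fell inside the Abi3_WT range: 4 were below it and 1, animal 3, was above it. With means of 211.0 ± 25.7 (SD, n = 6) and 178.0 ± 54.8 (SD, n = 5) the log2 fold change was -0.25, interval -0.57 to 0.08 (DESeq2, adjusted p = 0.572). Without Abi3_KO animal 3 the log2 fold change was -0.43, and the gene still missed the threshold (DESeq2, adjusted p = 0.121). Other omissions made the difference smaller, to -0.13 without Abi3_KO animal 5 and to -0.09 without the 3 libraries rich in *Ttr*. The 3 genes of GABA synthesis and packaging were thus each fitted lower in Abi3_KO, and none was called. Over the animals left out the log2 fold change ran from -0.14 to -0.02 for *Gad1* and from -0.25 to -0.08 for *Gad2*. Both were nearest 0 without Abi3_KO animal 5.

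*Pvalb* marks fast-spiking interneurons, in which parvalbumin buffers calcium. It had 63 to 165 reads per library, and ran from 56.9 to 140.6 in Abi3_WT with a median of 97.1. The Abi3_KO values were 126.9, 109.1, 101.5, 158.1 and 113.8, all above the Abi3_WT mean and 4 of 5 inside the Abi3_WT range. The means were 99.6 ± 35.7 (SD, n = 6) and 121.9 ± 22.3 (SD, n = 5), a log2 fold change of 0.30 with an interval of -0.14 to 0.73 (DESeq2, adjusted p = 0.634). Already among the Abi3_WT animals it varied by more than its counting error, with a coefficient of variation of 35.8% against 9.76% from counting alone.

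*Sst*, the gene of somatostatin, marks interneurons that contact the dendrites of pyramidal cells. It ran from 283.7 to 368.2 in Abi3_WT with a median of 297.9, and was 232.8, 369.7, 371.2, 304.9 and 314.1 in Abi3_KO. The lowest and the 2 highest of all 11 values were Abi3_KO animals, on either side of the Abi3_WT range. The means of 315.1 ± 38.3 (SD, n = 6) and 318.5 ± 56.9 (SD, n = 5) were close to equal, with a log2 fold change of 0.02 and an interval of -0.23 to 0.26 (DESeq2, adjusted p = 0.978).

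*Vip*, the gene of vasoactive intestinal peptide, marks interneurons that act largely on other interneurons. Abi3_WT animals spread from 61.7 to 139.3 around a median of 92.3, and the Abi3_KO animals had 127.9, 154.5, 118.2, 110.7 and 119.5. All 5 were above the Abi3_WT mean, 4 Abi3_WT animals were below every Abi3_KO animal, and the other 2 Abi3_WT animals lay among them. Between means of 96.0 ± 32.2 (SD, n = 6) and 126.2 ± 17.0 (SD, n = 5) the log2 fold change was 0.40, the highest of the 10, with an interval of 0.00 to 0.81 that just held 0 (DESeq2, adjusted p = 0.424). Its unadjusted p of 0.0518 in DESeq2 fell below 0.05 in 7 of 20 other fits, while its adjusted p was 0.369 or more in the 14 that gave one. With reads outside genes as a covariate the log2 fold change was 0.62 (DESeq2, adjusted p = 1.00).

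*Npy* codes for neuropeptide Y, which many *Sst* cells and neurogliaform cells of the cortex store. In Abi3_WT the range was 284.6 to 501.8 with a median of 309.0, and the Abi3_KO values were 261.1, 485.8, 249.5, 276.7 and 314.1. One animal of each group, animal 2 in both, stood far above the rest, and the other 9 lay between 249.5 and 321.9. The means were 336.2 ± 82.6 (SD, n = 6) and 317.4 ± 97.2 (SD, n = 5), the log2 fold change was -0.08, and the interval was -0.42 to 0.25 (DESeq2, adjusted p = 0.901). It was -0.41 with reads outside genes as a covariate, -0.01 without the *Ttr* libraries and 0.07 without Abi3_WT animal 2, and *Npy* was called in none of these fits.

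*Cck* codes for cholecystokinin, which marks a subclass of basket cells and is also made by many pyramidal cells, so it is the least specific of these genes. It was the most deeply read, with 1349 to 3056 reads per library. Abi3_WT animals ranged from 1540 to 2045 with a median of 1965, and the Abi3_KO values were 1725, 2018, 2041, 2120 and 2362. The groups overlapped, with 3 of 5 Abi3_KO animals inside the Abi3_WT range and 2 above it. From 1907 ± 191 (SD, n = 6) to 2053 ± 229 (SD, n = 5) the log2 fold change was 0.11, interval -0.06 to 0.27, the narrowest of the 10 (DESeq2, adjusted p = 0.658).

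*Tac1* codes for the precursor of substance P and neurokinin A, and is made by a share of cortical interneurons and by projection neurons of the striatum. The 6 Abi3_WT animals lay close together at 301.6 to 338.6, with a median of 308.8. The Abi3_KO animals had 181.4, 206.0, 358.1, 351.2 and 183.2. None of the 5 was inside the Abi3_WT range: animals 1, 2 and 5 were below it and animals 3 and 4 above it. The means were 316.3 ± 16.3 (SD, n = 6) and 256.0 ± 90.6 (SD, n = 5), with a log2 fold change of -0.31 and an interval of -0.63 to 0.01 (DESeq2, adjusted p = 0.445). The difference depended on the libraries and on the fit. It was -0.07 without the 3 libraries rich in *Ttr*, and 0.15 when reads outside genes entered as a covariate. Without Abi3_KO animal 3 or 4 it was larger, at -0.46 and -0.45. The unadjusted p of *Tac1* fell below 0.05 in 4 of 20 other fits, and its adjusted p was never below 0.119.

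*Reln* codes for reelin, an extracellular protein that is secreted in the adult cortex by interneurons, among them neurogliaform cells. Its Abi3_WT range was 108.4 to 189.4 with a median of 140.4, and the Abi3_KO animals had 148.9, 135.3, 157.6, 161.5 and 147.9, all inside it. The means of 145.9 ± 30.1 (SD, n = 6) and 150.3 ± 10.1 (SD, n = 5) gave a log2 fold change of 0.04 with an interval of -0.26 to 0.34 (DESeq2, adjusted p = 0.949).

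**Figure D2:**
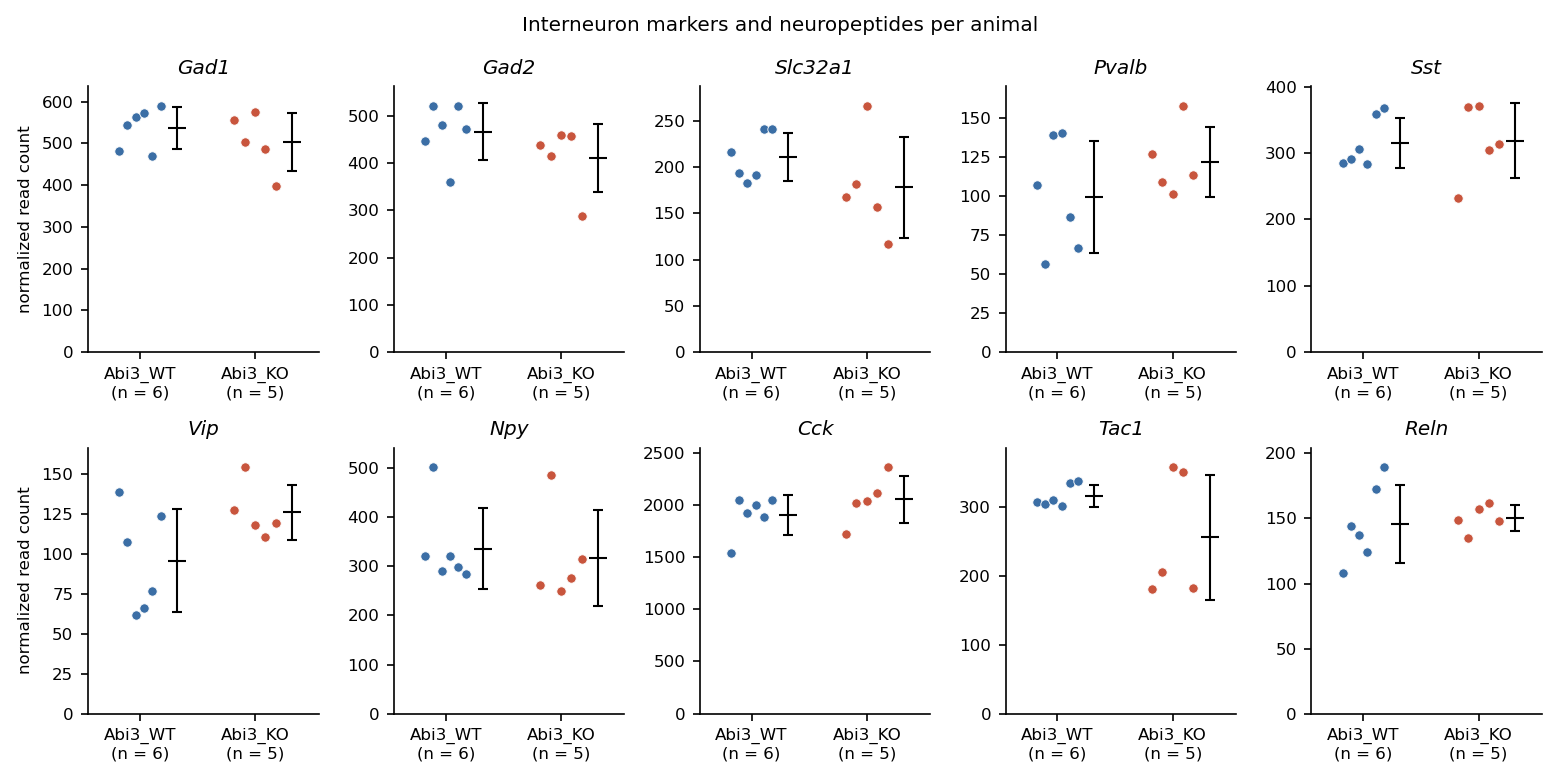
Normalized read counts of the 10 genes in each animal (points, in order of replicate number within a genotype), with the mean and SD of each group at the right of its points; every axis starts at 0. The groups overlap in all 10 panels, *Tac1* is tight in Abi3_WT (301.6 to 338.6) and spread on both sides of that range in Abi3_KO, and 1 animal per group stands apart for *Npy*.

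Of the 10 genes 0 had groups that did not overlap, against 1.54% of the genes with a mean count of at least 50. The spread within the groups differed from gene to gene, and these differences in spread were not tested. The coefficient of variation of *Tac1* was 5.16% in Abi3_WT, no more than the 6.01% that counting alone gives at this depth, and 35.4% in Abi3_KO. That ratio of 6.86 was reached by 4 of the 7780 genes with a mean count of at least 50, *Tac1* among them, and the median ratio over those genes was 1.04. *Slc32a1* went from 12.2% to 30.8%, a ratio that 4.24% of genes reached. An Abi3_KO group with no animal inside the Abi3_WT range, as in these 2 genes, was seen in 2.56% of the genes with a mean count of at least 50, and 1.02% had none inside and Abi3_KO animals on both sides. The spread was narrower in Abi3_KO for *Reln*, at 20.7% and 6.73%, and for *Vip*, at 33.6% and 13.5%. The 3 Abi3_KO animals with low *Tac1* had 49.8 to 52.8 reads outside genes per 100 in genes, and the 2 with high *Tac1* had 53.7 and 62.5. Of the 3 libraries rich in *Ttr*, Abi3_KO animals 1 and 5 had *Tac1* at 181.4 and 183.2 and Abi3_WT animal 4 had 301.6, and the part of either measure in the spread of *Tac1* was not tested.

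Ratios of these genes within an animal do not depend on the scaling of its library, and are given as descriptions. The ratio of *Gad1* to *Gad2* ran from 0.903 to 1.60 in Abi3_WT and from 1.06 to 1.39 in Abi3_KO, with all 5 Abi3_KO animals inside the Abi3_WT range. The ratio of *Sst* to *Pvalb* had medians of 3.39 and 2.76, and that of *Npy* to *Sst* 1.04 and 1.00. For *Vip* to *Cck* the medians were 0.0467 and 0.0579, and all 5 Abi3_KO animals were inside the Abi3_WT range. A ratio of inhibitory to excitatory transcripts was also taken, with the excitatory genes set after the data were seen. *Gad1*, *Gad2* and *Slc32a1* summed, over the excitatory genes *Slc17a7*, *Neurod2* and *Neurod6* summed, gave 0.952 to 1.41 in Abi3_WT with a median of 1.11. In Abi3_KO it was 0.907, 0.814, 1.27, 0.991 and 0.561, so 3 of 5 animals were below the Abi3_WT range and 2 inside it. The difference of the mean log2 ratios was -0.39, with SDs of 0.23 (n = 6) and 0.43 (n = 5), and -0.23 without Abi3_KO animal 5. The 3 excitatory genes were each fitted higher in Abi3_KO, with log2 fold changes of 0.12, 0.30 and 0.44. Of the full list of 12 excitatory genes 8 were fitted higher and 4 lower, so the ratio depends on the genes taken.

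**Figure D3:**
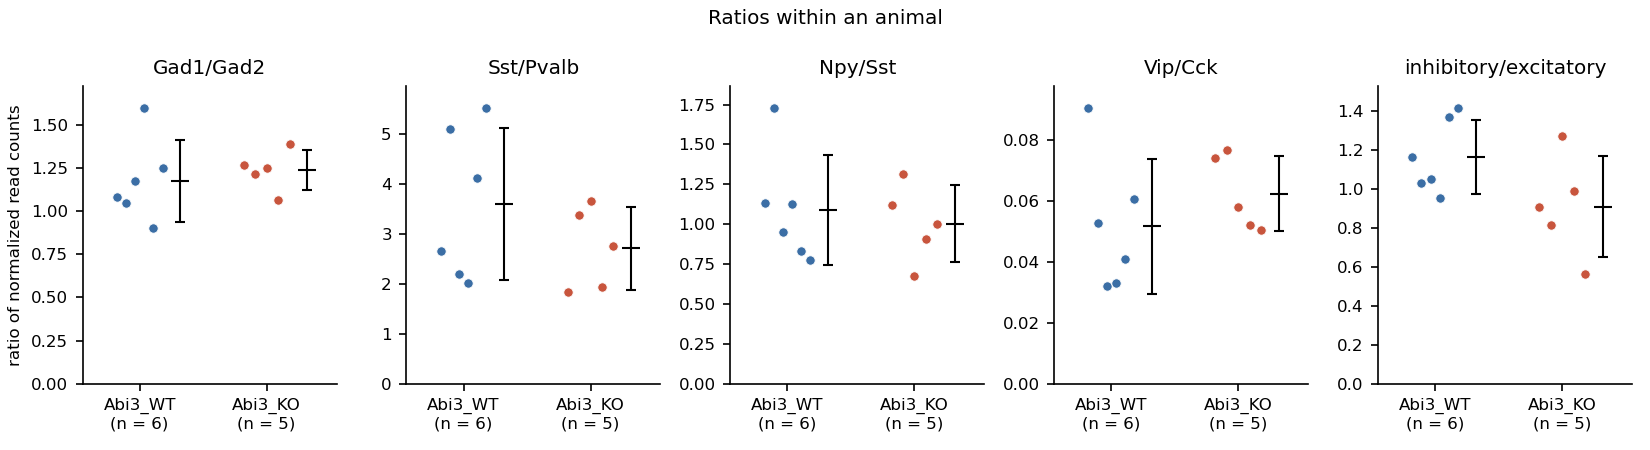
Ratios of normalized read counts within each animal, with the mean and SD of each group at the right of its points; every axis starts at 0, inhibitory is *Gad1*, *Gad2* and *Slc32a1* summed, and excitatory is *Slc17a7*, *Neurod2* and *Neurod6* summed. The groups overlap in all 5 panels. In the last panel, 3 of 5 Abi3_KO animals lie below the Abi3_WT range of 0.952 to 1.41. Its 3 excitatory genes were set after the data were seen, and each was fitted higher in Abi3_KO.

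Whether the genes rose and fell together from animal to animal was examined on log2 counts centred within each genotype. None of the 6 relations examined passed a two-sided permutation test, with adjusted p between 0.515 and 0.913 for Pearson's r. The closest was *Gad1* with *Slc32a1*, at r = 0.54 (permutation p = 0.0896, adjusted p = 0.515, n = 11) and Spearman's rho = 0.35 (permutation p = 0.286, adjusted p = 0.838). It stood at 0.45 without the 2 animals farthest from the median of *Gad1*, and at -0.38 within the 6 Abi3_WT animals. *Gad1* and *Gad2* gave r = 0.43 (permutation p = 0.172, adjusted p = 0.515) and rho = 0.27 (permutation p = 0.418, adjusted p = 0.838), and r was 0.08 without Abi3_KO animal 5 and Abi3_WT animal 5, so the relation rested on those animals. *Sst* and *Npy*, often made by the same cells, gave r = 0.09 (permutation p = 0.815) and rho = -0.07 (permutation p = 0.838). Over all 45 pairs of the 10 genes, r was above 0 in 24, with a median of 0.09 and a range from -0.60 for *Pvalb* with *Vip* to 0.62 for *Gad2* with *Slc32a1*. These pairs share libraries and size factors, and are given without a test.

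The genes most like each of the 10 across animals were found by the same measure among the 7780 genes with a mean count of at least 50. *Gad1* was closest to *Macir*, *Eipr1* and *Grm8*, a glutamate receptor (r = 0.95, 0.95 and 0.92), and *Gad2* to *Usp10*, *Cnot2* and *Esf1* (r = 0.95, 0.91 and 0.91). *Slc32a1* was followed by *Mmd2*, *Pttg1ip* and *Metrn* (r = 0.94, 0.93 and 0.90), *Pvalb* by *Exph5*, *Dmd* and *Ddx41* (r = 0.89, 0.88 and 0.87), and *Sst* by *Fbxl19* and *Pals2* (r = 0.94 and 0.93). *Vip* had *Ctsl*, *Arhgef26* and *Mgp* (r = 0.88, 0.88 and 0.87), *Cck* had *Olfm2*, *Bbln* and *Galnt17* (r = 0.98, 0.97 and 0.92), *Tac1* had *Heg1*, *Gm43879* and *Dlgap2* (r = 0.95, 0.92 and 0.91), and *Reln* had *Stau1*, *Kndc1* and *Tef* (r = 0.88, 0.86 and 0.86). *Npy* was close to *Sos2* and to *Chga*, the chromogranin A gene of dense-core vesicles (r = 0.96 and 0.91). None of the 10 genes had another of the 10 among its closest 3. With 11 animals and 7780 genes compared, high values of r are to be found for any gene, and these are descriptions with no p.

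The animals that stood apart for *Npy* also stood apart for *Chga*. *Chga* was 997.0 in Abi3_WT animal 2 and 727.2 in Abi3_KO animal 2, and 424.7 to 558.6 in the other 9. *Crhbp*, which codes for a corticotropin-releasing hormone binding protein found in many *Sst* cells, was 89.7 and 85.9 in the same 2 animals and 15.2 to 56.9 in the others. *Chga* and *Crhbp* were singled out after their values were seen. *Tac1*, which striatal projection neurons also make, was set against the summed striatal markers. The relation had r = 0.19 (permutation p = 0.573, n = 11) and rho = 0.10 (permutation p = 0.777). It had r = -0.12 without Abi3_KO animals 3 and 4, and r = -0.72 within the 6 Abi3_WT animals.

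**Figure D4:**
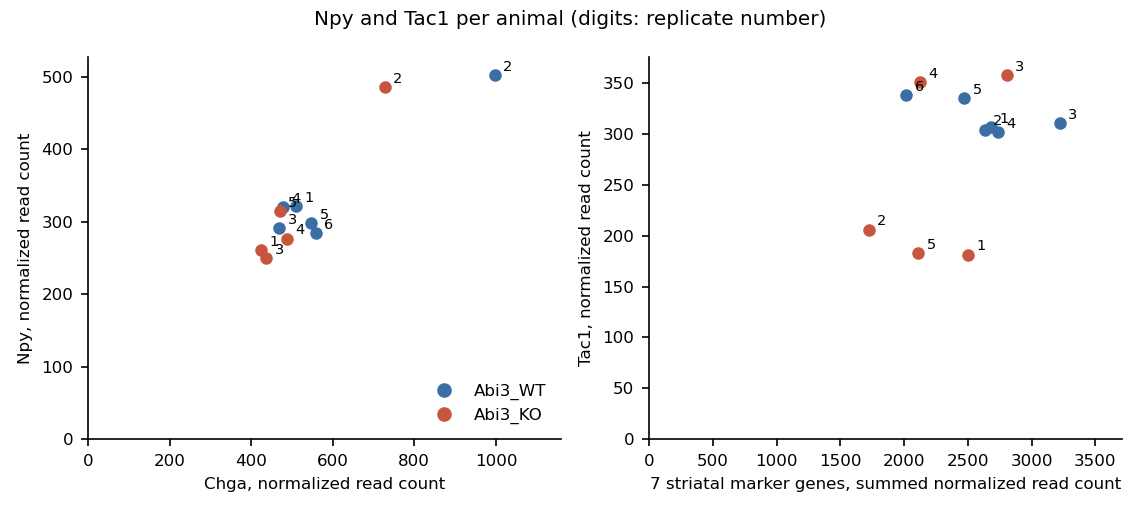
Left, *Npy* against *Chga*; right, *Tac1* against the sum of 7 striatal marker genes, all as normalized read counts with 1 point per animal and its replicate number beside it. Animal 2 of each genotype is apart from the other 9 in the left panel, and the 3 Abi3_KO animals with *Tac1* at 181.4 to 206.0 are not apart from the others in striatal markers.

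The rest of the pathway was read from 14 lists of 150 genes for GABA handling, interneuron identity, peptide release and reception, reelin signalling and other cell types, of which 149 were tested. DESeq2 called 4 of them, all higher in Abi3_KO, and 3 of the 4 are described with their lists. The lists were described by their counts and medians, with no test of a list as a whole.

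Among 8 other genes of GABA uptake and breakdown, 0 were called by DESeq2 and 1, *Abat*, had an unadjusted p under 0.05. *Abat*, the transaminase that breaks GABA down, had means of 402.6 ± 34.7 (SD, n = 6) and 349.9 ± 30.1 (SD, n = 5), a log2 fold change of -0.20 (DESeq2, adjusted p = 0.366). The list had a median of -0.06 and 5 of 8 genes fitted lower. The astrocyte GABA transporter *Slc6a11* had a log2 fold change of -0.37 (DESeq2, adjusted p = 0.551), and the glutamine transporter *Slc38a1* had -0.13 (DESeq2, adjusted p = 0.664).

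The transcription factors of interneurons had a median log2 fold change of -0.05 over 14 genes. *Dlx6*, a factor of the interneuron lineage, had 28.6 ± 8.3 and 17.2 ± 6.24 counts (SD, n = 6 and 5), too few for DESeq2 to give an adjusted p. *Prox1* and *Nr2f2*, which mark interneurons from the caudal eminence, had log2 fold changes of 0.32 and 0.44 (DESeq2, adjusted p = 0.591 and 0.672).

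Of 25 further subclass markers, 13 had too few reads for an adjusted p, and 0 were called by DESeq2. An unadjusted p under 0.05 was seen for 1 with a higher and 3 with a lower level. *Kcnc1*, the Kv3 potassium channel gene of fast-spiking cells, had 675.9 ± 59.7 (SD, n = 6) and 580.8 ± 53.2 (SD, n = 5) counts, a log2 fold change of -0.22 (DESeq2, adjusted p = 0.221). *Acan*, the aggrecan of the nets around *Pvalb* cells, had a log2 fold change of -1.99 on 1 to 20 reads per library. *Calb2*, the calretinin gene of many *Vip* cells, had -0.67, with 42.9 to 97.3 counts in Abi3_WT and 35.7 to 50.5 in Abi3_KO. *Kit*, a receptor of neurogliaform and other cells, had 0.55. *Acan*, *Calb2* and *Kit* had too few reads for an adjusted p. The median of the list was -0.02.

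The 9 other neuropeptide genes had a median log2 fold change of -0.35, with 7 of 9 fitted lower and 0 called by DESeq2. Of the 9, 6 had too few reads for an adjusted p and so could not be called. *Penk* and *Pdyn*, the enkephalin and dynorphin precursors, which are also made by striatal neurons, had -0.17 and -0.35 (DESeq2, adjusted p = 0.549 and 0.608). *Gal* and *Adcyap1*, for galanin and PACAP, had -1.73 and 0.44, the former on 0 to 22 reads per library. The 10 striatal markers leaned the same way, with 9 of 10 fitted lower, a median of -0.28 and 0 called. Of these 10, 5 had too few reads for an adjusted p. *Drd2*, the D2 dopamine receptor, had -0.59, *Isl1* -0.82, and *Pde10a* -0.26 (DESeq2, adjusted p = 0.455 for *Pde10a*, none given for the others). The part of the striatal RNA in the peptide values was not tested.

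Of the 15 genes of peptide processing and dense-core vesicles, 1 was called. *Chgb*, the granin chromogranin B, had 1494 to 1798 counts in Abi3_WT, mean 1679 ± 131 (SD, n = 6), and rose to 1832 to 2635 in Abi3_KO, mean 2129 ± 300 (SD, n = 5). The groups did not overlap, and the log2 fold change was 0.34 (SE 0.0837; DESeq2, adjusted p = 0.00973). It was not called without Abi3_KO animal 2, the animal with high *Npy* and *Chga*, where its log2 fold change was 0.25 (DESeq2, adjusted p = 0.0530), nor in edgeR (adjusted p = 0.0699) or without the *Ttr* libraries (DESeq2, adjusted p = 0.0794). With reads outside genes as a covariate the log2 fold change was 0.13 (DESeq2, adjusted p = 1.00). The other 14 processing genes were not called. *Scg5* had 0.31, *Pcsk1n* -0.14 and *Ptprn2*, a receptor-type phosphatase of dense-core vesicles, -0.41 (DESeq2, adjusted p = 0.736, 0.570 and 0.281), and the median of the list was 0.00.

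Of 13 receptors for these peptides, 12 were tested and 0 were called by DESeq2, 10 of them with too few reads for an adjusted p. *Cckbr*, the cholecystokinin receptor of the cortex, had 128.4 ± 22.7 (SD, n = 6) and 162.9 ± 37.2 (SD, n = 5) counts, a log2 fold change of 0.35 (DESeq2, adjusted p = 0.368). *Npy2r* had 0.85 on 8 to 52 reads per library, and *Vipr2* and *Tacr3* had under 20 reads in every library.

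In the reelin pathway, 1 of 8 genes was called. *Pafah1b1*, which codes for LIS1, a partner of dynein in neuronal migration, had 908.6 to 1091 counts in Abi3_WT, mean 1009 ± 60.0 (SD, n = 6), and rose to 1146 to 1245 in Abi3_KO, mean 1194 ± 38.3 (SD, n = 5). Its groups did not overlap and its log2 fold change was 0.24 (SE 0.0625; DESeq2, adjusted p = 0.0183). Without Abi3_WT animal 6 or Abi3_KO animal 3 the adjusted p in DESeq2 was 0.0698 and 0.0614. The call was also lost in edgeR (adjusted p = 0.314), in limma (adjusted p = 0.194), with a replicate block (DESeq2, adjusted p = 0.0769) and with reads outside genes as a covariate (DESeq2, adjusted p = 1.00). The log2 fold change in these fits, in the order named, was 0.237, 0.242, 0.238 and 0.263. The receptor *Lrp8* and the signalling genes *Crk* and *Fyn* had -0.18, -0.10 and -0.06 (DESeq2, adjusted p = 0.700, 0.819 and 0.881), and the list had a median of -0.04, next to 0.04 for *Reln* itself.

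Marker lists of other cell types give the background of tissue makeup against which the 10 genes stand. Of 8 microglial genes 7 were fitted higher, with a median of 0.29, and *Ctss*, the lysosomal protease cathepsin S, was called at 0.44 (SE 0.106; DESeq2, adjusted p = 0.00758). *Ctss* was not called with the covariate, at 0.74 (DESeq2, adjusted p = 0.0962), or with a replicate block, at 0.46 (DESeq2, adjusted p = 0.163). *C1qa*, *Trem2* and *Aif1* had 0.47, 0.36 and 0.49, and were not called. All 8 oligodendrocyte genes were fitted higher with a median of 0.16 and 0 called, with *Cnp* at 0.30 (DESeq2, adjusted p = 0.326), *Mog* at 0.30 and *Ugt8a* at 0.36. The 12 excitatory neuron genes had a median of 0.09 and 0 called, with *Slc17a6* at 0.33, *Rorb* at 0.19, *Neurod6* at 0.44 and *Neurod2* at 0.30 (DESeq2, adjusted p = 0.266 for *Neurod2*). The 8 astrocyte genes had a median of -0.10 and 0 called, with *Gfap* at 0.24, *Slc1a3* at -0.15, *Aldoc* at -0.13 and *Aqp4* at -0.11. Of 6 endothelial genes 0 were called and the median was -0.01, with *Flt1* at 0.27, *Cldn5* at -0.40, *Pecam1* at -0.12 and *Ly6c1* at 0.09. The choroid plexus list had a median of 0.45 and 0 called, with 5 of 6 genes too low for an adjusted p. Its sums were 60.1 to 3516 in Abi3_WT and 86.9 to 2315 in Abi3_KO. *Clic6*, *Folr1*, *Kcne2* and *Otx2* of that list stayed at 25 reads or fewer per library.

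**Figure D5:**
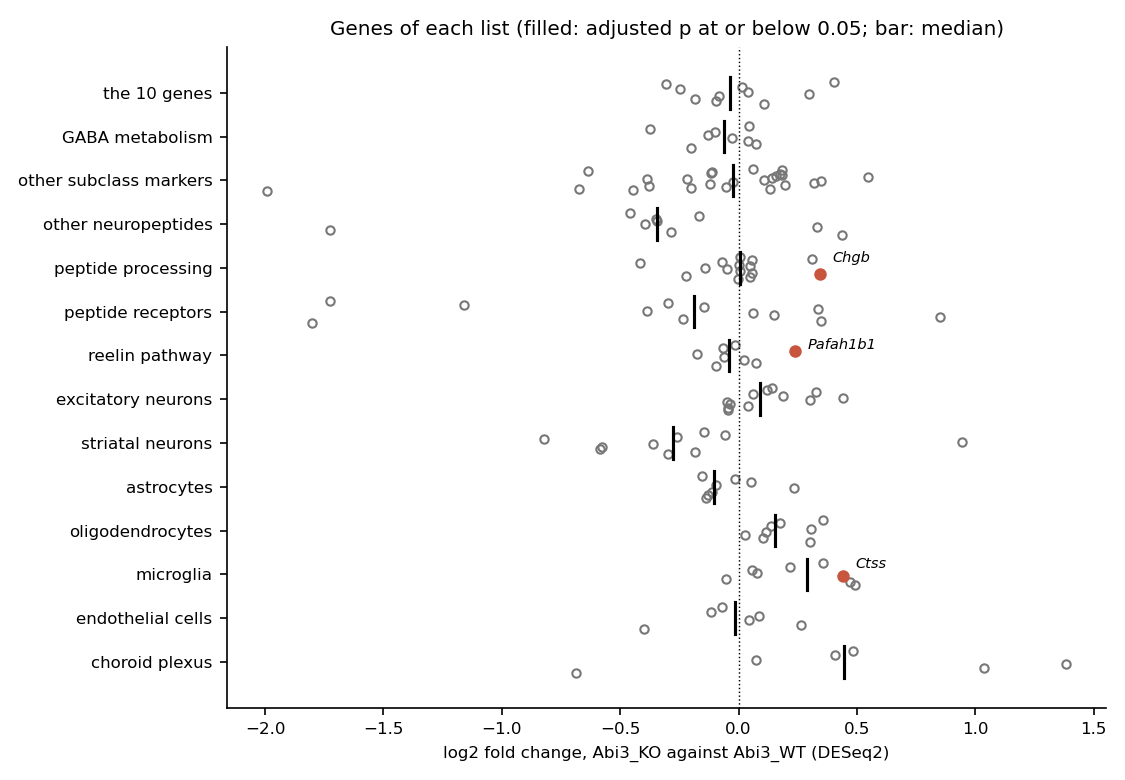
Log2 fold change of each gene in Abi3_KO against Abi3_WT for the 10 genes and 13 other lists (open points), with the median of each list (bar) and 3 called genes filled and named. The 10 genes lie on both sides of 0, and the medians run from -0.35 for other neuropeptides to 0.45 for choroid plexus genes.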

How the data were processed

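Cerebral cortex of 11 mice was profiled by QuantSeq 3′ sequencing with 1 library per mouse. The strain, transgenes and alleles were those of the labels and the study's methods. The deposited files hold raw read counts per Ensembl gene: the authors trimmed adapters and poly(A), aligned reads to GRCm39 with STAR (version 2.7.3a) and counted uniquely aligned reads on the gene's strand with HTSeq (version 0.9.1). PCR copies were not stated to be removed, and each count is a read rather than a molecule. Of the 53700 identifiers 98.0% matched the GENCODE annotation that gave symbols. Reads that overlap 2 genes on 1 strand are left out of such counts in part, which can touch *Gad2* and *Reln*, within which other genes are annotated on the same strand.

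Groups came from the labels. The genotypes were compared in DESeq2 1.42.0 under R 4.3.3, genotype as the only term, on genes with at least 10 reads in total. Those with a mean of 1.5 or more normalized counts were kept. By the Benjamini-Hochberg method p was adjusted over the 6487 genes past DESeq2's own filter, with a threshold of 0.05. DESeq2 gives no adjusted p below a mean count of 70.4, set by its own filter. The scripts were tested on simulated data. Totals of 3202310 to 5501958 reads set the precision, and the animals were treated as separate replicates. Correlations used log2(normalized count + 1) and 100000 permutations.

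The genes named were *Abi3*, the 10 genes, up to 4 genes per list with the lowest DESeq2 p, and the 3 genes most correlated with each of the 10, of which some are not reported here. Members and lists were chosen with earlier results of these data known. Alternatives were edgeR (version 4.0.16), limma voom with sample weights (version 3.58.1), other scalings and filters, a replicate block, a covariate for reads outside genes, and each animal left out. Leaving out the 3 libraries rich in *Ttr*, and a ratio with 3 excitatory genes, were added after the data were seen. Replicate numbers were not taken to pair the animals. Promoter windows came from RefSeq and were placed on GRCm39 by exact match.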

Additional observations from a re-analysis of the deposited data

Results flagged for a closer look

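Of 30 groups of values examined, each a gene or ratio in 1 genotype, 4 held an animal far from the others of its group by Dixon's criterion, where chance gives about 1.5. *Npy* accounted for a pair of them: Abi3_WT animal 2 had 501.8 normalized counts against 284.6 to 321.9 in the other 5, and Abi3_KO animal 2 had 485.8 against 249.5 to 314.1 in the other 4. *Gad2* was 286.8 in Abi3_KO animal 5 and 414.1 to 458.4 in the other 4. *Cck* was 1540 in Abi3_WT animal 1 and 1883 to 2045 in the other 5. The cause of these values was not tested.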

How the results depend on the processing

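None of the 10 genes was called under any of 20 alternatives, and the lowest adjusted p given was 0.119, for *Tac1*. Over all genes 95 were called, against 37 with edgeR, 20 with limma, 57 without independent filtering, 3 with reads outside genes as a covariate, 27 without the 3 libraries rich in *Ttr*, and 46 to 120 with 1 animal left out. Of these, leaving out Abi3_WT animal 1 or 6 gave 61 or 48, and leaving out Abi3_KO animal 1, 2 or 5 gave 61, 46 or 47. Of the genes in the other lists 4 were called, against 2 with edgeR, 0 with the covariate, 2 without the *Ttr* libraries and 3 to 5 with 1 animal left out. *Chgb* was called in 16 of 20 alternatives, *Pafah1b1* in 14 and *Ctss* in 18. A replicate block gave 30 genes called, 23 of them among the 95, and 2 in the lists. Deviations from the group mean correlated at 0.040 on average between animals of the same number, against -0.008 between other numbers. Of the 5 same-number correlations 1 was over 0.1. It was that of animal 2, at 0.12, the pair that stood apart for *Npy*. The sign of the log2 fold change turned with the covariate for *Sst*, to -0.057, and for *Tac1*, to 0.15, and the value for *Npy* went from -0.08 to -0.41. Reads outside genes went largely with genotype, so that fit cannot tell them apart. Over the animals left out the log2 fold change ran from -0.045 to 0.11 for *Sst*, from -0.29 to 0.069 for *Npy* and from -0.029 to 0.12 for *Reln*. For *Pvalb* it ran from 0.17 to 0.43, and for *Cck* from 0.052 to 0.16. Genes among the 10 whose groups did not overlap numbered 0 to 1 over the animals left out, the 1 being *Slc32a1* without Abi3_KO animal 3. That animal was the only Abi3_KO value above the Abi3_WT range. The share over all genes was not taken for that omission, so the count is not read as a result. The cause of these changes was not tested.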
